A study of Mus musculus with 13 samples.

Results

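Cmtm5, Anxa8, Slpi, Fam101a and Glt25d2 are 5 of the 12880 genes in an RNA-seq table of mouse limb buds, taken by their symbols because they lie outside the usual cartilage lists and were lower in Sox9-deficient limb buds than in controls at E12.5 (E for embryonic day). The genes were thus chosen by their E12.5 values, and their E12.5 differences are given as a description with no test. The table holds 13 libraries, each from the limb buds of 1 embryo per the file header, in 4 groups. At E11.5 there were 3 Sox9fl/- controls and 4 Sox9-/- mutants, labelled Sox9null. At E12.5 there were 3 Sox9fl/fl controls and 3 Sox9fl/flPrx1CreER mutants, labelled Sox9cKO. The E11.5 controls thus carried 1 deleted allele and those at E12.5 none. Prx1 regulatory sequence is known to drive Cre in limb mesenchyme. The strain, the inducer and its timing were not given in the sources used here. Values are the authors' normalized RPKM, reads scaled by gene length and library depth, so levels can be set side by side between genes.

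SOX9 is a transcription factor of cartilage-forming cells. With SOX5 and SOX6 it is known to switch on collagen II, aggrecan and other matrix genes as mesenchymal cells of the limb condense into cartilage. The 5 genes have other known roles. Fam101a, now named Rflna, encodes refilin A, a binding partner of the actin crosslinkers called filamins. Glt25d2, now Colgalt2, encodes an enzyme that adds galactose to hydroxylysine in collagen. Anxa8 encodes an annexin, a calcium-dependent phospholipid-binding protein, and Slpi a secreted inhibitor of serine proteases, both best known from epithelia. Cmtm5 encodes a membrane protein of the chemokine-like factor and MARVEL domain family.

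On the mm10 assembly, GENCODE mouse release 21 places Fam101a (ENSMUSG00000037962) on chromosome 5 from 125003221 to 125012547 on the plus strand. Glt25d2 (ENSMUSG00000032649) lies on chromosome 1 from 152399830 to 152510695 on the plus strand. Anxa8 (ENSMUSG00000021950) and Cmtm5 (ENSMUSG00000040759) are both on chromosome 14, plus strand, at 34085981 to 34100571 and 54936261 to 54939274. Slpi (ENSMUSG00000017002) is on chromosome 2 from 164354070 to 164389095, minus strand. All are annotated as protein-coding. Anxa8 lies wholly within A630023A22Rik, a gene of the other strand (34051126 to 34102754). The annotated exons of that gene lie outside Anxa8, which sits in its intron, so exon reads of the pair differ in position.

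RefSeq promoter windows (GRCm38.p6) were found for 3 of the 5 genes by symbol. The 250 bases before the annotated start were searched on both strands for ACAATG and ACAAAG, hexamers of the SOX type that do not overlap each other. The Slpi and Anxa8 windows are shown because they differ in this search. Capitals mark the match, and both are written 5′ to 3′ on the gene's strand, chr2:164356508-164356757 (minus) for Slpi and chr14:34085729-34085978 (plus) for Anxa8.
Slpi: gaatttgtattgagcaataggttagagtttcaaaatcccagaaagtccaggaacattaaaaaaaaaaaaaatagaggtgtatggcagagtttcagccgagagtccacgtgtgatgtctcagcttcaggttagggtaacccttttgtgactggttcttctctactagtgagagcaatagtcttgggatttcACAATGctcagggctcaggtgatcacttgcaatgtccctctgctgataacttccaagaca
Anxa8: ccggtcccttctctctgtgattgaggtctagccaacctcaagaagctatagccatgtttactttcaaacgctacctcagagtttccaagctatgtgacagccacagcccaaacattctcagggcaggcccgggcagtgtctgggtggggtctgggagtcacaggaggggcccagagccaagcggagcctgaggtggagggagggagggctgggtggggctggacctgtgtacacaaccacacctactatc
Slpi holds 1 match, ACAATG, beginning 60 bases before the start. Anxa8 and both windows of Cmtm5 hold none. At least 1 of the hexamers was present in 25.2% of all 32851 such windows, and ACAATG in 10.7%. A match is a description of the letters, not of a bound site.

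The targeted gene was checked first. Sox9 had 35.8 to 49.3 RPKM in the E11.5 controls and 20.6 to 25.7 in Sox9null, with no overlap (log2 difference -0.76, limma adjusted p = 0.036). At E12.5 it had 35.2 to 37.5 RPKM in controls and 28.7 to 35.1 in Sox9cKO, log2 -0.18 by the same test (adjusted p = 1). A whole-gene value can include exons that remain after deletion, so it checks the labels in part. Libraries of E11.5 formed 1 set of 4, controls 1 and 3 with Sox9null 3 and 4, and another of 3, control 2 with Sox9null 1 and 2, at library correlations of 0.979 to 0.989 within sets and 0.938 to 0.966 between them. At E12.5 the 3 controls and Sox9cKO 3 expressed Y-linked genes (means of 22.7 to 23.8 RPKM over 4 genes) and Sox9cKO 1 and 2 did not (at most 0.0512).

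Fam101a was the most abundant of the 5 genes in each group. At E12.5 its controls lay at 25.6, 15.7 and 21.7 RPKM, Sox9cKO at 8.64, 4.2 and 5.46. Each mutant was below each control, and the mean was 71.0% lower, a log2 difference of -1.66 (SE 0.232) on the log2(RPKM + 1) scale, which understates the change of low genes. The refilin gene was already present a day earlier, at 3.65, 6.37 and 5.14 RPKM in the E11.5 controls against 2.88, 2.73, 2.32 and 2.52 in Sox9null. These groups did not overlap either.

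Glt25d2, the collagen galactosyltransferase gene, had the smallest difference of the 5 at E12.5. Its controls had 6.42, 4.82 and 7.12 RPKM and Sox9cKO 3.69, 3.05 and 3.07. The mean was 46.5% lower (log2 -0.73, SE 0.125), again without overlap. A day earlier the values were 2.26, 1.85 and 2.25 RPKM for controls, then for Sox9null 1.77, 1.67, 1.78 and 1.69, a narrow gap between groups that do not overlap.

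Anxa8, the annexin gene, had the largest log2(RPKM + 1) difference of the 5, a rank that did not hold under every alternative setting. Its E12.5 values were 5.92, 3.21 and 5.78 RPKM in the control limb buds against Sox9cKO values of 0.683, 0.890 and 0.638, a mean 85.2% lower (log2 -1.75, SE 0.272). The lowest control, number 2, was still above the highest mutant. At E11.5 the groups overlapped: the controls spread from 0.240 to 1.51 RPKM and Sox9null from 0.383 to 1.05. Control 2, the low one, belongs to the set of 3 libraries.

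Slpi, the protease inhibitor gene, was nearly level across the E12.5 controls, at 4.39, 4.22 and 4.31 RPKM. The Sox9cKO libraries had 1.69, 0.709 and 0.763, a mean 75.5% lower (log2 -1.40, SE 0.182). Sox9cKO 1 stood above the other mutants but below each control. At E11.5 Slpi was low in both groups and they overlapped, at 0.515, 0.606 and 0.779 RPKM (controls) against 0.118, 0.549, 0.427 and 0.271 (Sox9null).

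Cmtm5, the MARVEL family gene, had 5.73, 5.00 and 6.67 RPKM in the E12.5 controls and 1.51, 1.45 and 0.552 in Sox9cKO. The mean was 79.9% lower (log2 -1.67, SE 0.193) and the groups did not overlap. It was the lowest of the 5 at E11.5, with 0.388, 0.780 and 0.557 RPKM (controls) against 0.0900, 0.248, 0.217 and 0 (Sox9null). Each mutant lay below each control there too, at levels that rest on few reads.

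**Figure D1:**
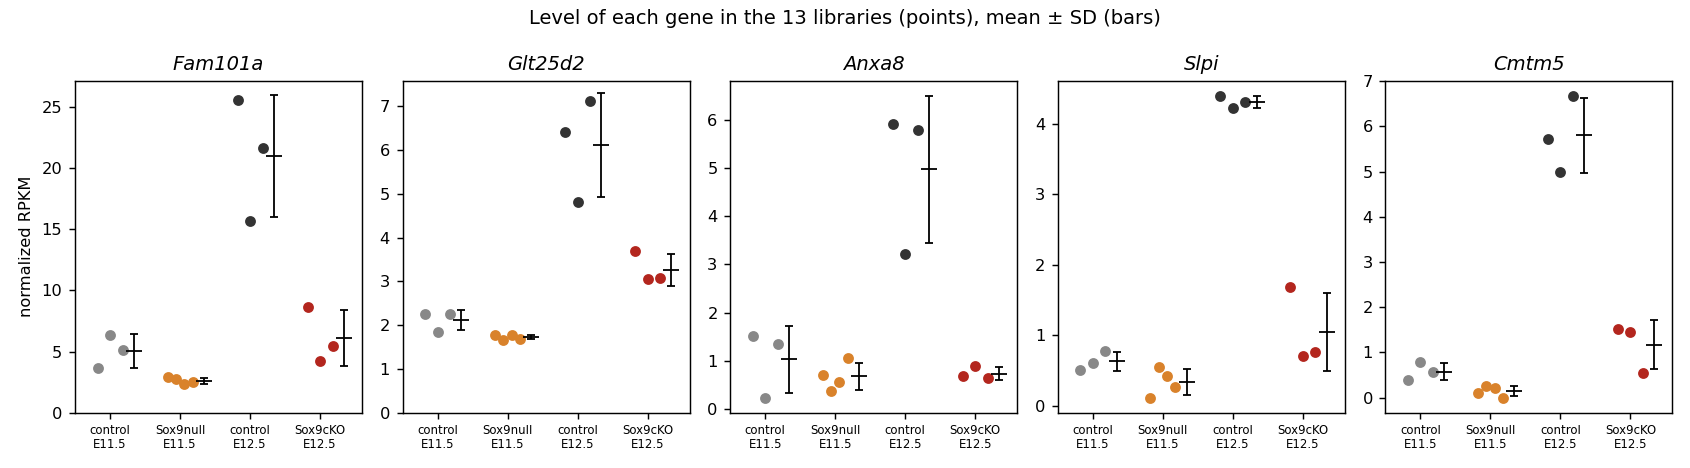
Normalized RPKM (y axes, 1 scale per gene) of the 5 genes, 1 point per library, with groups on the x axis and bars showing the mean ± SD. For each gene the E12.5 controls lie above all other libraries, from Slpi at 4.22 to 4.39 up to Fam101a at 15.7 to 25.6 RPKM.

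At E12.5 each gene had each mutant below each control, which held for 8.5% of all 12880 genes. The count of 5 of 5 follows from the choice of the genes. The order of the libraries was shared. Control 2 was the lowest control for 5 of the 5 genes, and Sox9cKO 1 was the highest mutant for 4 of 5, all but Anxa8. The summed level of 24 measured cartilage genes was likewise lowest and highest in these libraries, with control 2 at 530.0 RPKM against 647.0 and 660.0 in controls 1 and 3, and Sox9cKO 1 at 411.0 against 327.0 and 352.0. Control 2 was also the lowest E12.5 control for the summed skeletal muscle (229.0 RPKM against 288.0 and 303.0), macrophage (88.0 against 98.9 and 104.0), nerve, tendon, ectoderm and osteoblast lists, and the highest for the erythroid and endothelial lists. Sox9cKO 1 was the highest mutant for the cartilage and erythroid lists but for none of the other marker lists. Sox9cKO 3, the mutant that shares Y-linked expression with the controls, differed from their mean by -1.74 (Fam101a), -0.79 (Glt25d2), -1.83 (Anxa8), -1.59 (Slpi) and -2.12 (Cmtm5) on the log2 scale. These differences were as large as those over all 3 mutants, but they rest on 1 library and are no test of sex. Sox9cKO 3 was also the lowest E12.5 library for the summed skeletal muscle (145.0 RPKM), macrophage (72.9) and tendon (308.0) lists. The same held for the nerve (71.7), ectoderm (271.0) and osteoblast (19.3) lists, but not for the cartilage, erythroid or endothelial lists.

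The rule that chose the genes names only their E12.5 values, and the E11.5 comparison asks whether they already differed a day earlier. It is not fully independent of the choice, since results of these data were known when the genes were chosen. Cmtm5, Slpi, Anxa8 and Glt25d2 are also in the table through the E12.5 groups alone. All 5 had a log2 difference below 0, from -0.72 for Fam101a to -0.19 for Glt25d2, as did 43.2% of all genes. Each Sox9null library was below each control for 3 of 5 (Fam101a, Cmtm5 and Glt25d2), against 1.06% of all genes. Limma called 0 of 5 at an adjusted p under 0.05, where it called 0.0543% of all genes lower. At an unadjusted p under 0.05, 2 of 5 were lower, against 1.05% of all genes. The sizes depend on the pseudocount in the low genes: with 0.1 in place of 1 the largest was that of Cmtm5, at -1.62, and Slpi had -0.83, while with 3 they had -0.19 and -0.12.

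Fam101a had means of 5.05 ± 1.36 (SD, n = 3) and 2.61 ± 0.249 RPKM (SD, n = 4), a log2 difference of -0.72 (SE 0.217). Its limma p was 0.00621 before adjustment and 0.987 after. Cmtm5 had 0.575 ± 0.197 and 0.139 ± 0.115, a log2 difference of -0.47 (SE 0.181). Its limma p was 0.0245 before adjustment and 1 after. By an exact permutation test, two-sided by doubling the smaller tail, both genes and Glt25d2 had p = 0.0571. That is the lowest value this doubling permits over 35 splits of 3 against 4. For Slpi the exact p was 0.114 (means of 0.633 and 0.341 RPKM) and for Anxa8 0.514 (1.03 and 0.678). These tests over single genes were 5 in number and are not adjusted, since the genes were chosen with results of these data known.

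Within the library sets the E11.5 log2 differences kept their sign for 4 of the genes. In the set of 4 and the set of 3 they were -0.65 and -0.95 for Fam101a, -0.41 and -0.61 for Cmtm5, -0.29 and -0.29 for Slpi, and -0.25 and -0.07 for Glt25d2. Anxa8 had -0.44 among the 4 libraries and 0.31 among the 3, where the only control is the low one. Without control 1, 2 or 3 the Anxa8 difference was -0.04, -0.55 or -0.09. With the library set as a term the limma adjusted p of the 5 genes was between 0.171 (Fam101a) and 0.802 (Anxa8), so none was called.

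**Figure D2:**
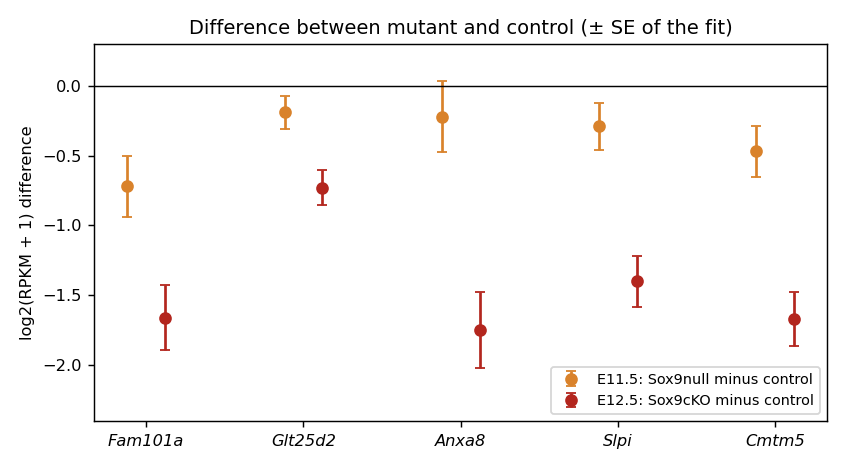
Differences of log2(RPKM + 1) between mutant and control (y axis) for the 5 genes (x axis) at E11.5 and E12.5, with bars for the SE of the fit. At E12.5 the values run from -1.75 (Anxa8) to -0.73 (Glt25d2), and at E11.5 from -0.72 (Fam101a) to -0.19 (Glt25d2).

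Across age, the 5 genes were higher at E12.5 than at E11.5 in controls. The E12.5 controls helped to choose the genes, and the alleles of the groups differ between ages, so these values are a description. The control means went from 0.575 to 5.80 RPKM for Cmtm5 (10.1 times) and from 0.633 to 4.31 for Slpi (6.80 times). For Anxa8 they went from 1.03 to 4.97 (4.81 times), for Fam101a from 5.05 to 21 (4.16 times) and for Glt25d2 from 2.12 to 6.12 (2.89 times). No E12.5 control overlapped an E11.5 control for 5 of 5, where 32.6% of all genes had each E12.5 control above each E11.5 control. The log2 difference was at least 1 for 5 of 5, against 2.03% of all genes. Both counts follow in part from the choice of the genes and are no test. Cmtm5, Slpi, Anxa8 and Glt25d2 are also in the table through the E12.5 groups alone.

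In the mutants the age difference was smaller for each gene. From Sox9null to Sox9cKO the means went from 0.139 to 1.17 RPKM for Cmtm5, from 2.61 to 6.10 for Fam101a, from 0.341 to 1.05 for Slpi and from 1.73 to 3.27 for Glt25d2. In these 4 genes each Sox9cKO library was above each Sox9null library, as for 23.7% of all genes. Anxa8 had 0.678 and 0.737 RPKM, a log2 difference of 0.06 with overlapping groups. As ratios of means, Sox9cKO stood at 8.42 times Sox9null for Cmtm5, against 10.1 times in the controls. The 8.42 rests on a Sox9null mean of 0.139 RPKM, with Sox9null 4 at 0, so it is imprecise. On the log2(RPKM + 1) scale Cmtm5 differed by 0.90 between the mutants and by 2.11 between the controls. The ratios were 3.09 for Slpi, 2.34 for Fam101a, 1.89 for Glt25d2 and 1.09 for Anxa8. On the log2(RPKM + 1) scale, which understates the change of low genes, none of the 5 reached 1 between the mutants. Of all genes 1.07% did. The controls' age difference exceeded the mutants' by 0.53 (Glt25d2) to 1.52 (Anxa8) on that scale. That excess was not tested, because it contains the values that chose the genes.

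The order of levels was the same in both E11.5 groups, from Cmtm5 through Slpi, Anxa8 and Glt25d2 to Fam101a. In the E12.5 controls Slpi, Anxa8, Cmtm5 and Glt25d2 lay between 4.31 and 6.12 RPKM. Of these, Anxa8, Cmtm5 and Glt25d2 overlapped one another, as did Slpi and Anxa8. Fam101a, at 21 ± 4.97 RPKM (SD, n = 3), was above them in every control. Among all listed genes the control means of Cmtm5 and Slpi stood at the 0.202 and 0.217 percentile at E11.5 and at the 14.2 and 7.52 percentile at E12.5. Fam101a went from the 14.1 to the 63.6 percentile. The table lists only genes with a mean of at least 3 in 1 group, which Cmtm5, Slpi, Anxa8 and Glt25d2 reach through the E12.5 groups alone.

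The genes whose pattern was most like each of the 5 were sought by the root mean square difference of centred log2 values over the 13 libraries. These include the E12.5 libraries that chose the 5 genes, so close matches tend to share the E12.5 difference by the search itself. The matches are the smallest distances of the whole table, so the median over all genes gives a scale and no test. For Cmtm5 they were Nog, the BMP antagonist noggin (0.19), Papss2, an enzyme making the sulfate donor of cartilage proteoglycans (0.25), and Fam101a itself (0.28), where the median over all genes was 0.98. For Fam101a they were Eomes, a T-box factor gene (0.20), Papss2 (0.21) and Col11a2, a cartilage collagen chain (0.23), with a median of 0.98. Eomes had means of 0.612 and 0.0805 RPKM at E11.5 and 3.98 and 0.826 at E12.5, in controls and mutants.

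Slpi was closest to Extl1, a glycosyltransferase gene (0.23), Cthrc1, a secreted collagen-repeat protein gene (0.24), and Mia1, a gene of a small secreted cartilage protein (0.25), against a median of 0.77. Anxa8 had looser matches, Mia1 (0.28), Extl1 (0.34) and Cd83, an immunoglobulin family gene (0.42), against a median of 0.78. For Glt25d2 they were Tgfa, an EGF receptor ligand gene (0.14), Mmp28, a metalloproteinase gene (0.14), and Gpm6b, a membrane proteolipid gene (0.15), against a median of 0.53. Tgfa had means of 1.65 and 1.04 RPKM at E11.5 and 4.24 and 2.21 at E12.5. Among the 5 genes themselves, Cmtm5 and Fam101a were closest (0.28) and Anxa8 and Fam101a farthest (0.55).

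Gene lists related to the 5 genes by family or function were next set beside them. At E12.5 limma called 0.194% of all genes in either direction, and 5.41% had an unadjusted p under 0.05. Of 7 other annexin genes it called 0, with 2 at an unadjusted p under 0.05. These were Anxa1 (log2 -0.46) and Anxa2 (-0.19), both lower in Sox9cKO. Of the 7 annexin genes 6 were below 0, as were 43.2% of all genes. The most abundant annexin gene, Anxa6, had means of 50.6 and 47.0 RPKM in the E12.5 controls and Sox9cKO. The list's median log2 difference was -0.11, against 0.01 for all genes. Of 6 other genes of the chemokine-like factor family it called 0, with 0 at an unadjusted p under 0.05, and Cmtm3 had 35.3 and 34 RPKM (list median 0.04).

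Of 7 other protease inhibitor genes limma called 0 at E12.5, with 1 at an unadjusted p under 0.05 (list median -0.07). It was Wfikkn2, with means of 22.9 RPKM in controls and 18.2 in Sox9cKO (log2 -0.32). That list is wider than the kin of Slpi, which are the inhibitors with WAP domains. Spint2, the most abundant over the 13 libraries, had 22.6 and 21 RPKM. The filamin list held Fam101b, the paralogue of Fam101a, 3 filamins and the filamin-binding Fblim1. Limma called 0 of these 5, with 0 at an unadjusted p under 0.05 (list median -0.06). Fam101b had 31.1 and 29.8 RPKM and Flna 75.0 and 73.1, levels above those of Fam101a in both groups.

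Of 25 other genes for collagen modification and maturation limma called 0 at E12.5 (list median -0.06, with 21 below 0). At an unadjusted p under 0.05 there was 1, Loxl3, lower in Sox9cKO (log2 -0.27). Glt25d1, the paralogue of Glt25d2, had 36.6 and 35.3 RPKM, and Serpinh1, a collagen chaperone gene and the most abundant, 114.0 and 112.0. At E11.5 limma called 0 genes of these 5 lists, with 0 annexins, 1 gene of the Cmtm5 family, 0 inhibitors, 0 filamin genes and 2 collagen enzymes at an unadjusted p under 0.05, where 2.82% of all genes were. For comparison, 6 of 24 measured cartilage genes were called lower at E12.5 and 3 at E11.5. The cartilage medians were -0.63 and -0.31, and those of the 5 genes -1.66 and -0.29, where the first is set by their choice.

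The listed genes within 200 kb of each gene were also read, measured between the lower coordinates of the 2 genes. Of 22 such neighbours limma called 0 at E12.5, with 1 lower at an unadjusted p under 0.05 (3.63% of all genes), the cartilage matrilin gene Matn4 beside Slpi. The other 21 had log2 differences from -0.35 to 0.12. Efs, an adaptor protein gene 19.7 kb from Cmtm5, had 31.7 and 32.1 RPKM in the E12.5 controls and Sox9cKO. Tsen15, a tRNA splicing gene 29.1 kb from Glt25d2, had 10.1 and 10.0. Gdf10, a BMP family gene 162.0 kb from Anxa8, had 19.8 and 15.1.

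**Figure D3:**
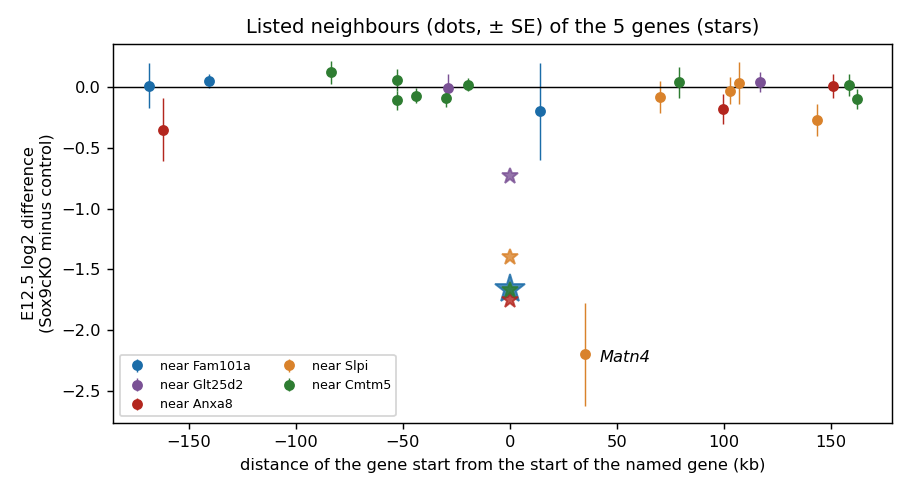
Log2 differences at E12.5 (y axis, bars for the SE) of the 22 listed neighbours against the distance of their lower coordinate from that of the named gene (x axis, kb), with stars for the 5 genes. Matn4, at -2.20, lies apart from the other 21 neighbours, which run from -0.35 to 0.12.

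Matn4 bears on the reading of Slpi. It had 24.1, 16 and 24 RPKM in the E12.5 controls and 8.97, 1.87 and 2.86 in Sox9cKO (log2 -2.20, SE 0.421, adjusted p = 0.0756 by limma). At E11.5 it had 1.77, 5.01 and 5.29 RPKM (controls) against 0.158, 0.603, 0.178 and 0.111 (Sox9null), log2 -1.92 with SE 0.393 and adjusted p = 0.232 by limma. Neither comparison overlapped. Sox9cKO 1 was the highest mutant for Matn4 as it was for Slpi, and Sox9null 2 was the highest Sox9null library for both.

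Both genes are read from the minus strand, with Matn4 (164389393 to 164405160) upstream of Slpi on chromosome 2. GENCODE gives 3 Slpi transcripts. Slpi-201 begins at 164356507, and the promoter printed above belongs to that start. Slpi-203 begins with an exon of 280 bases (164388816 to 164389095), 32.6 kb farther upstream and 297 bases beyond the end of Matn4. The table gives 1 value per gene, so reads of that exon cannot be told from those of the others. Whether reads that run on from Matn4 were counted for Slpi was not tested.

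**Figure D4:**
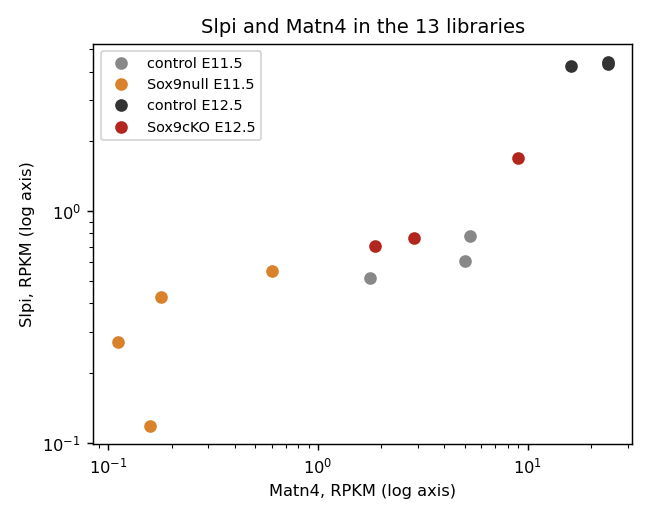
Slpi against Matn4 in RPKM (both axes logarithmic), 1 point per library, coloured by group. The E12.5 controls are the highest for both genes (Matn4 at 16 to 24.1, Slpi at 4.22 to 4.39), and Sox9cKO 1 (8.97 and 1.69) lies nearest to them.

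Markers of other cell types were read in the same E12.5 libraries, since in bulk tissue fewer cells of a type and less RNA per cell cannot be told apart. Slpi and Anxa8 are known from epithelia. Of all genes at E12.5, 43.2% had a log2 difference below 0 and 5.41% an unadjusted limma p under 0.05. Of 24 measured surface ectoderm genes limma called 0, with 2 at an unadjusted p under 0.05. The ectoderm genes summed to 314.0 to 326.0 RPKM in controls and 271.0 to 311.0 in Sox9cKO. Of the 24, 17 were lower, with the keratin gene Krt5 at 30.0 and 25.1. At E11.5 they lay the other way, with 23 of 24 above 0 in Sox9null and 0 called by limma. Of 8 measured nerve and Schwann cell genes limma called 0, with 4 at an unadjusted p under 0.05. Those 4 went both ways, with Sox10 (log2 -0.78) and Erbb3 (-0.44) lower and Tubb3 (0.26) and Stmn2 (0.55) higher in Sox9cKO. The 8 genes summed to 85.5 to 89.6 RPKM in controls and 71.7 to 89.1 in Sox9cKO.

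Erythroid genes lay the other way. All 20 measured had a log2 difference above 0 in Sox9cKO, though Hbb-b1 was level, with a mean of 20.3 RPKM in both groups. Their summed levels were 719.0 to 773.0 RPKM in controls and 988.0 to 1210.0 in mutants, and limma called 2 higher. At E11.5 the same 20 were higher in Sox9null (906.0 to 1010.0 against 943.0 to 1620.0), with 0 called by limma. Of these 11 had an unadjusted p under 0.05, against 2.82% of all genes. Of 13 skeletal muscle genes 11 were lower at E12.5 (229.0 to 303.0 against 145.0 to 234.0), and of 13 tendon and connective tissue genes 11 (374.0 to 407.0 against 308.0 to 370.0). Limma called 0 in both lists, with 5 and 3 at an unadjusted p under 0.05.

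Macrophage and leukocyte genes summed to 88.0 to 104.0 RPKM in the E12.5 controls and 72.9 to 114.0 in Sox9cKO, endothelial genes to 224.0 to 233.0 and 230.0 to 247.0, and 4 osteoblast and perichondrium genes to 21.4 to 24.6 and 19.3 to 22.9. Limma called 0 in these 3 lists, with 1 in each at an unadjusted p under 0.05. The part of cell makeup in the values of the 5 genes was not tested.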

How the data were processed

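Total RNA of limb buds was sequenced after extraction with a column kit, per the labels' protocols. CASAVA 1.8 and mm10 were used, per the submitters' processing notes but aligner, counting and strand were not given in the sources used here. Normalized RPKM was deposited by the authors for genes with a mean of at least 3 in at least 1 group, per the file headers. Library normalization was likewise not given in the sources used here. Whole reads could not be recovered: at the best step only 37.8% to 48.0% of low values per library lay within 0.15 of a whole multiple, so depth is unknown and no count model was used.

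Tests ran on log2(RPKM + 1) by limma 3.58.1 in R 4.3.3 (trend, robust; a mean per group over 13 libraries; two-sided; Benjamini-Hochberg over 12880 genes; call at an adjusted p under 0.05). Alternatives were other pseudocounts, scalings, filters and settings, library set, sex or block terms, and leaving out each library. The fit was also run on simulated data, drawn independently for each library. The simulation held no library sets, so it does not check how the fit handles those of E11.5. Of the genes, 12715 matched GENCODE mouse release 21. P-values measure the spread between embryos within groups. In the main fit that spread is pooled over all groups and includes the difference between the E11.5 library sets. Named genes were the 5 genes, Sox9, the most abundant and any called gene of the family lists, the 3 closest patterns per gene (predicted genes left out) and listed neighbours within 200 kb. Members and lists were chosen with earlier results of these data known. The SOX hexamers, the Slpi and Anxa8 loci, Matn4 and the order of libraries were taken up after values were seen. Paralogues Fam101b and Glt25d1 are named beside their members, and further marker genes as examples chosen after their values were seen. Anxa1, Anxa2, Wfikkn2 and Loxl3 are named for their unadjusted p at E12.5, also after values were seen. Some neighbouring and marker genes are not reported here by name.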

Additional observations from a re-analysis of the deposited data

Results flagged for a closer look

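Matn4 in Sox9null 2 had 0.603 RPKM, far above the other Sox9null libraries (0.111 to 0.178), and its gap to them was large for a group of 4. It stayed below each E11.5 control. Of 7 groups examined this way (the 5 genes, Sox9 and Matn4 in Sox9null), 1 stood out. Chance gives about 1 in 20 for each group, so 1 among 7 can arise by chance. Matn4 was also taken up after values were seen.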

How the results depend on the processing

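The 5 genes were below 0 at both ages under every alternative that gave a value; the filter of a mean of 5 left out Anxa8 and Slpi. At E11.5 none was called under any alternative (smallest limma adjusted p 0.171, Fam101a with the library set as a term). At E12.5 the size of the log2 difference followed the pseudocount in the low genes: with 0.1 it was -2.32 for Cmtm5, -2.56 for Anxa8 and -2.03 for Slpi, and with 3 it was -1.08, -1.07 and -0.86. Quantile normalization gave -1.67 for Slpi. The rank of Anxa8 as the largest E12.5 difference depended on the setting. With a pseudocount of 3 the largest was that of Fam101a, at -1.41. With sex as a term Fam101a and Cmtm5 had -1.84 and Anxa8 -1.68. At E11.5, pseudocounts of 0.1 and 3 gave -1.62 and -0.19 for Cmtm5, -0.83 and -0.12 for Slpi, -0.32 and -0.12 for Anxa8, -0.90 and -0.51 for Fam101a and -0.28 and -0.11 for Glt25d2. Leaving out each library at E12.5 gave -1.80 to -1.45 for Cmtm5, -1.98 to -1.62 for Anxa8, -1.61 to -1.29 for Slpi, -1.90 to -1.45 for Fam101a and -0.86 to -0.62 for Glt25d2. At E11.5 these ranges were -0.55 to -0.37, -0.55 to -0.04, -0.36 to -0.21, -0.90 to -0.57 and -0.26 to -0.16 in the same order.

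The number of genes called by limma was 7 at E11.5 and 25 at E12.5. At E11.5 it was 13 with median centring, 0 in the fit of that age alone (241 genes at an unadjusted p under 0.05), or 41 when the library set was added. At E12.5 it was 42 with a pseudocount of 3, 57 with quantile normalization, or 105 when the library set was added. Without 1 library it ranged from 2 to 8 at E11.5, lowest without control 3 or Sox9null 3 (2) and Sox9null 1 or 2 (3). At E12.5 it ranged from 9 to 47: 9, 47 and 11 without controls 1, 2 and 3, 40, 15 and 10 without Sox9cKO 1, 2 and 3, and 38 without the E11.5 control 1. The cause was not tested. With the replicate number as a block it was 5 at E11.5 and 16 at E12.5. The labels do not say that numbers mark shared litters, and same-numbered libraries did not deviate together throughout (r of deviations -0.435, 0.635 and 0.441 at E11.5, 0.169, 0.0266 and -0.117 at E12.5), so the pairing is only of numbers. Depth is unknown, so values under about 1 RPKM are the least precise.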
